A study of Rattus norvegicus with 6 samples.

Results

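The 47 probe sets described here, for 44 genes, read higher in rat ovaries at postnatal day 4 and in newborn ovaries kept in culture than in ovaries on the day of birth. They were chosen from the measured intensities. A probe set was taken when its lowest value over the 2 day 4 arrays and the 2 cultured arrays was at least 40 and at least 1.5 times the higher of the 2 newborn arrays, when it was not a control and when it carried 1 gene symbol. The table held 8799 probe sets, of which 7006 were no controls and carried 1 symbol, for 4736 symbols. A further 11 probe sets met both thresholds but were left out by the rule through their symbol, and the 47 were 0.696% of the 6754 probe sets that the rule could take. Whatever their values, the rule left out Zp1, Zp2, Zp3, Star, Dnmt1, Pld1, Alox15, Fabp4, Lpl, Dhcr7, Hsph1 and symbols beginning Slc, Ccn or Cdk. The groups of genes below are therefore not the make-up of all raised genes. Alas1, Ndrg4 and Clpb were each represented by 2 of the 47.

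Whole ovaries of Rattus norvegicus were measured on 6 arrays of Affymetrix's U34 rat design (Set A), on which a set of short oligonucleotide probes reports 1 intensity for a transcript or a group of similar transcripts. The 3 groups held 2 arrays each: ovaries of female pups on postnatal day 0 (P0), ovaries of pups on postnatal day 4 (P4), and ovaries removed on day 0 and kept for 7 days on floating filters in medium with bovine serum albumin, Albumax, transferrin, insulin, ascorbic acid and antibiotics (cultured). Each RNA sample was a pool of about 20 ovaries, so 1 array stands for many animals. The strain is not given in the labels, no group carried a transgene, and all 3 groups were whole organs. The design text of the series also mentions progesterone-treated cultures. The sample labels name no such treatment, so it is unsettled whether either cultured array received it, and both are taken as labelled. P0 and P4 arrays of the same replicate number share an ending of their chip identifiers, and each cultured array has its own.

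In the newborn rat ovary, oocytes held in meiotic arrest are enclosed one by one by flat pregranulosa cells to form primordial follicles. In the days that follow some of these follicles begin to grow: the oocyte enlarges and lays down its zona pellucida, and the granulosa cells turn cuboidal and divide. Newborn ovaries placed in organ culture form and activate follicles outside the animal, without the circulation and the pituitary hormones that reach the organ in the pup.

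Markers of the labelled organ were measured on every array. Zp3, a zona pellucida protein made by oocytes, read 519.6 and 566.9 at P0, 1467 and 2082 at P4, and 1327 and 1004 in culture. Inha, the inhibin alpha subunit of granulosa cells, read 238 and 394.7 at P0, 1970 and 1349 at P4, and 360.7 and 462.3 in culture. These 2 genes do not stand for all markers of their cells. Ddx4, of the oocyte list, read 241 and 159.9, then 193.9 and 206.6, then 139.6 and 171.5. Fst, of the granulosa list, read 1011 and 813.9, then 560.3 and 407.1, then 316.9 and 259. Of 6 measured oocyte markers, 3 were higher and 0 lower at P4 than at P0 by limma (adjusted p under 0.05). Array totals had been equalised before deposit, and the 2% trimmed mean came to 125.2 on every array. P0 replicate 1 stood apart in its control probe sets, with a GAPDH 3' intensity of 1324 against 2162 to 2775 on the other 5 arrays and a spiked BioC intensity of 296.3 against 148.7 to 225.4. Without that array 142 probe sets would meet the rule, and without P0 replicate 2 it would be 83. Leaving out any array can only raise this number. Because these are whole organs, more RNA per cell and more cells of a type cannot be told apart in any value below.

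Promoter sequences are shown first for 5 genes on which the description turns. Pllp and Gja5 stand first in the rule's own ratio, though both of their P0 arrays were at background, and Akr1c14, Acsl1 and Pla2g2a are the 3 genes that passed the test between culture and P4. Each is the 250 bases before the annotated start in RefSeq (build GRCr8), written 5′ to 3′ in the direction of the gene. Capitals mark a match to a GATA motif (AGATAA) in Pllp, a TATA box (TATAAA) and a GC box (GGGCGG) in Gja5, and a CCAAT box (CCAAT) in the other three. Both strands were searched, and all of these matches but the GC box lie on the opposite strand, so that CCAAT appears as ATTGG.
Pllp: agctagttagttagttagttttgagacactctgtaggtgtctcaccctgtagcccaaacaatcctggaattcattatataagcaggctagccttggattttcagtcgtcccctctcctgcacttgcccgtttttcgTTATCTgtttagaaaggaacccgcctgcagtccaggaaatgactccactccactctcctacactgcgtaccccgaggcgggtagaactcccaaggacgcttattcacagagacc
Gja5: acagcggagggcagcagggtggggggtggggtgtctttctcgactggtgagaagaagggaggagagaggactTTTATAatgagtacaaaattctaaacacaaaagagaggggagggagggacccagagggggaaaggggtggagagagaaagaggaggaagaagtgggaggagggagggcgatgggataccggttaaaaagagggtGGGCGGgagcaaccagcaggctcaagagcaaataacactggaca
Akr1c14: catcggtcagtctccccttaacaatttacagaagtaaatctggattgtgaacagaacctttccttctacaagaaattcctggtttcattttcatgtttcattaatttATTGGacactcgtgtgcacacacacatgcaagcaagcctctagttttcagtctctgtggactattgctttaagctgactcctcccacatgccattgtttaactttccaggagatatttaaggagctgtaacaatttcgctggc
Acsl1: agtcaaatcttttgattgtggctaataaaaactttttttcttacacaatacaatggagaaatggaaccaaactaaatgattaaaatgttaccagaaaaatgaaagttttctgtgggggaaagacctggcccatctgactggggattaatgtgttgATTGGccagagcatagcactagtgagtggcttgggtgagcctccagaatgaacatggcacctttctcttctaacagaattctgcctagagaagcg
Pla2g2a: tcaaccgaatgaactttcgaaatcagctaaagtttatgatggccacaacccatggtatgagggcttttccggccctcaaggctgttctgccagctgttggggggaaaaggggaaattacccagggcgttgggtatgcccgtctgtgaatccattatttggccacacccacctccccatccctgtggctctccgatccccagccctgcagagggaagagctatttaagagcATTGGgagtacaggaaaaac
These windows lie at chr19:10320830-10321079 (plus strand) for Pllp, chr2:187290977-187291226 (plus strand) for Gja5, chr17:71083185-71083434 (minus strand) for Akr1c14, chr16:52532393-52532642 (minus strand) for Acsl1, and chr5:156359475-156359724 (plus strand) for Pla2g2a.

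Of the 44 genes, 37 had a promoter in the RefSeq table. A CCAAT match was found in 21 of the 37 (56.8%), against 36.2% of the 2980 tested genes with a promoter and 34.3% of all 27457 promoters. In the 3 promoters above, its first base in the gene's direction lay 143 (Akr1c14), 95 (Acsl1) and 20 bases (Pla2g2a) before the start. A GC box was found in the same number of promoters, 21 of 37 (56.8%), against 58.1% of the tested genes. A TATA match was held by 2 promoters, those of Gja5 and Gsta1 (5.41%, against 9.16% of the tested genes), and a GATA match by Pllp only (2.70% against 6.14%). The letters TGACG, the core of the cyclic AMP response element, were in 10 (27.0% against 27.8%). Base composition was near that of the other genes, with a median GC content of 64% in the 37 promoters and 60.4% in the 2980. The range was wide, from 40% in Acsl1, whose window held 1 CpG, to 81.2% in Cds1, whose window held 41. A match is a description of letters and not a bound site, and none of these shares was tested.

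The rise from birth that chose the genes is given here as a description, with no test. Among 23 control probe sets that detect nothing added to the samples, no array gave an intensity above 20, and a P0 value under it has no reliable level. Both P0 arrays were under 20 for Pllp, Gja5, Adcy5 and Cpa1, and 1 of them was for Unc13c, Enpp3, Spn and Col11a1. In every fold below, each P0 value under 20 is set to 20, so that folds of these 8 are lower bounds, written "at least", and the medians and figures hold them at their bound. On that scale the lowest of the 4 later arrays was 1.52 to 2.79 times the higher P0 array, with a median of 1.79. This ratio was at least 2 for 14 probe sets and at least 3 for 0, with the highest values in Pllp (at least 2.79), Ndrg4 (2.73) and Clu (2.65). As group means, P4 stood from 1.63-fold (Aco1) to at least 6.61-fold (Cpa1) above P0, with a median of 2.41. Culture stood 1.66-fold (Impa2) to 25.03-fold (Pla2g2a) above P0, with a median of 2.48. Within the 2 pairs of P0 and P4 arrays that share a chip identifier ending, the median P4 over P0 fold was 2.45 and 2.43. The rule required at least 1.5 in each such pair, so a rise in both was fixed in advance. The P0 means ran from 11.9 to 317.8, so the genes span faint and bright probe sets. Replicates differed by a median factor of 1.15 at P0, 1.17 at P4 and 1.24 in culture, against 1.23, 1.22 and 1.23 over all 6118 tested probe sets. The rule used the same values and tends to drop probe sets whose replicates lie far apart, so these factors are partly set by the choice. Of the 47, 33 read higher on P0 replicate 1 than on P0 replicate 2, where 54.4% of all tested probe sets did.

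**Figure D1:**
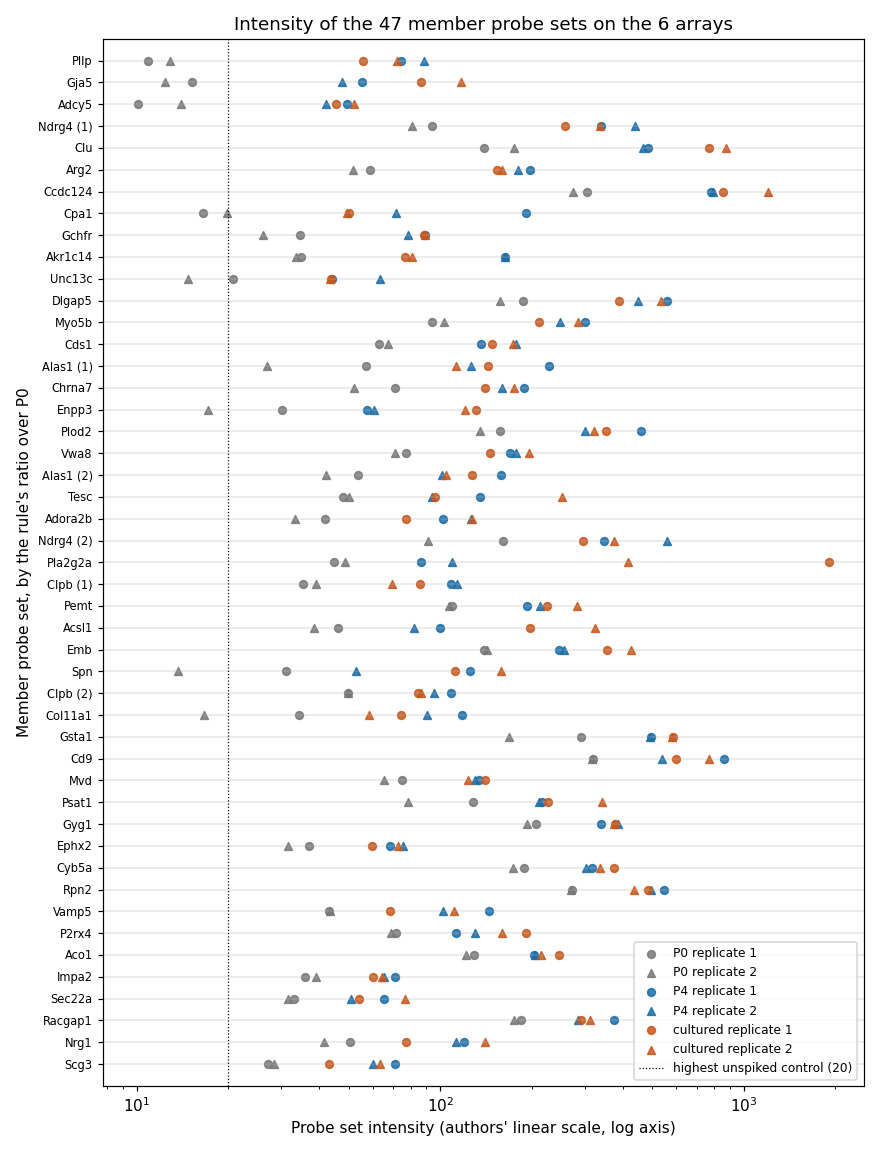
Intensity (authors' linear scale, log axis) of the 47 probe sets on each of the 6 arrays, ordered by the rule's own ratio of the lowest later value over the higher P0 value, with circles for replicate 1 and triangles for replicate 2 of each group. Each row's P0 points lie left of its P4 and cultured points, as the rule required, the dotted line marks the control level of 20, and Pla2g2a on cultured replicate 1 is the point farthest to the right.

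Probe sets are compared only with themselves across arrays, since the intensity of a probe set depends on its probes. Beside the groups of genes below, counts are given for listed genes that are not among the 44, by limma at an adjusted p under 0.05. On that rule 0.85% of all tested probe sets were called higher and 0.229% lower at P4 than at P0, 3.48% higher and 1.95% lower in culture than at P0, and 2.16% higher and 0.621% lower in culture than at P4. The fit had no term for the chip identifier ending that same-numbered P0 and P4 arrays share. Its counts between P4 and P0 therefore make no use of that pairing.

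Proteins of membrane contact and vesicle traffic made up the largest group, with 10 genes whose median fold over P0 was 2.60 at P4 and 2.33 in culture. Pllp, plasmolipin, a membrane protein of myelin and of the apical surface of epithelia, read 10.9 and 12.9 at P0, 74.5 and 88.2 at P4, and 55.7 and 71.9 in culture. It was thus at least 4.07-fold higher at P4 and at least 3.19-fold higher in culture, and the P4 arrays lay above the cultured ones. Gja5, the gap junction protein connexin 40 best known from arterial endothelium and heart, read 15.2 and 12.4 at P0, 55.3 and 47.4 at P4, and 86.2 and 116.9 in culture. Its cultured arrays lay above its P4 arrays, and it was at least 2.57-fold higher than P0 at P4 and at least 5.08-fold in culture. Of 8 measured endothelial marker genes, 0 passed between P4 and P0 by limma (0 higher and 1 lower at an unadjusted p under 0.05), and 1, Icam1, an adhesion molecule, was higher in culture than at P0. Their summed intensity was 772.2 and 816.8 at P0, 517.4 and 697.5 at P4, and 562.1 and 650.9 in culture, lower on all 4 later arrays than on either P0 array, and none of the 8 was at 0 on any array.

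Cd9, a tetraspanin of oocytes and many other cells, read 318.6 and 317 at P0, 864.9 and 536.3 at P4, and 596.8 and 769 in culture. The P4 arrays lay on both sides of the cultured ones. Emb, embigin, a partner of monocarboxylate transporters at the cell surface, read 139.8 and 142.6 at P0, 245.9 and 256.8 at P4, and 355.1 and 426.2 in culture, with the cultured arrays above the P4 arrays. Myo5b, a motor of recycling vesicles, read 94.2 and 102.6, then 301.1 and 249.1, then 211.2 and 284.8 in the same order of groups, and its P4 and cultured arrays overlapped. Unc13c, a priming factor of synaptic vesicle release, read 20.7 and 14.8 at P0, 44 and 63.3 at P4, and 43.7 and 43.4 in culture. Its P4 arrays lay just above the cultured ones. Vamp5 and Sec22a, members of SNARE protein families, and Scg3, a granin of secretory granules, were 1.80-fold to 2.87-fold above P0 at P4 and 1.92-fold to 2.08-fold in culture.

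Spn, leukosialin of leukocyte surfaces, read 31 and 13.7 at P0, 125.6 and 53 at P4, and 111.9 and 158.9 in culture. The P4 replicates differed from each other by more than the cultured group differed from P4. The summed intensity of 12 measured macrophage and leukocyte markers was 645.4 and 785.4 at P0, 428.9 and 514.2 at P4, and 4370 and 2173 in culture, and none of the 12 was at 0 on any array. These sums were lower at P4 than at P0 and highest in culture. By limma 7 of the 12 were higher in culture than at P4 and 0 lower (11 and 0 at an unadjusted p under 0.05), among them Lyz2 (lysozyme) and C1qb (a complement subunit). Their part in the cultured values of Spn was not tested.

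Receptors and intracellular signalling proteins numbered 7 genes on 8 probe sets, with median folds over P0 of 2.67 at P4 and 2.60 in culture. Adcy5, an adenylyl cyclase that makes cyclic AMP, read 10.1 and 14 at P0, 49.3 and 42 at P4, and 45.5 and 52.1 in culture. It was at least 2.28-fold higher at P4 and at least 2.44-fold higher in culture, with overlapping arrays. Adora2b, an adenosine receptor that stimulates adenylyl cyclase, read 41.6 and 33.2, then 101.9 and 126.8, then 77 and 127.6, again overlapping. Chrna7, a nicotinic acetylcholine receptor subunit, read 71.2 and 52.2 at P0, 188.3 and 159.3 at P4, and 140.1 and 174.9 in culture.

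P2rx4, an ion channel opened by ATP, was 1.73-fold above P0 at P4 and 2.50-fold in culture. Nrg1, a neuregulin that activates ErbB receptors, was 2.53-fold and 2.36-fold above P0. Ndrg4, a cytoplasmic protein of the NDRG family, read 94.1 and 80.5 at P0, 338.9 and 440 at P4, and 257 and 336.7 in culture on the probe set with the larger ratio under the rule. On its second probe set it read 161.5 and 91.3, then 347.6 and 559, then 295.1 and 374. Both probe sets gave a higher mean at P4 than in culture. Tesc, a calcium-binding regulator of proton exchange, read 47.7 and 50.2 at P0, 135 and 94.2 at P4, and 95.9 and 252.2 in culture, so the cultured replicates differed widely and overlapped the P4 arrays. Of 22 other measured genes of cyclic AMP and gonadotropin signalling, 0 passed between P4 and P0 by limma (1 higher and 1 lower at an unadjusted p under 0.05), and 1, Pde4b, a phosphodiesterase that breaks down cyclic AMP, was higher in culture than at P0.

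Genes of lipid, sterol and steroid metabolism numbered 9, with median folds over P0 of 2.09 at P4 and 2.31 in culture. Akr1c14, a 3alpha-hydroxysteroid dehydrogenase that reduces steroids such as dihydroprogesterone and dihydrotestosterone, read 34.8 and 33.4 at P0, 163.2 and 163.4 at P4, and 76.6 and 80.7 in culture. The P4 replicates were nearly equal and lay above both cultured arrays. Acsl1, which activates long-chain fatty acids to their coenzyme A esters, read 46.2 and 38.4 at P0, 99.6 and 81.7 at P4, and 198.4 and 323.2 in culture. Pla2g2a, a secreted phospholipase A2 induced in inflammation, read 44.6 and 48.4, then 86.6 and 109.5, then 1911 and 417.4. For both genes each cultured array exceeded each P4 array, and the cultured replicates of Pla2g2a differed 4.58-fold.

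Enzymes of phospholipid and inositol metabolism differed less between P4 and culture. Cds1, which makes CDP-diacylglycerol, read 62.7 and 67.5 at P0, 136 and 177.7 at P4, and 148.1 and 174.2 in culture. Pemt, which methylates phosphatidylethanolamine to phosphatidylcholine, was 1.88-fold above P0 at P4 and 2.34-fold in culture. Impa2, an inositol monophosphatase, was 1.82-fold and 1.66-fold above P0. Mvd, an enzyme of the mevalonate pathway to cholesterol, read 74.7 and 65.2 at P0, 134.3 and 129.8 at P4, and 141 and 123.6 in culture. Its P4 pair lay inside its cultured pair. Ephx2, a soluble epoxide hydrolase of fatty acid epoxides, read 37 and 31.5, then 68.2 and 75.2, then 59.8 and 72.8, with overlap. Cyb5a, cytochrome b5, an electron donor to desaturases and steroid-modifying P450 enzymes, was 1.71-fold and 1.96-fold above P0.

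Few related genes outside the 44 passed at an adjusted p under 0.05. Of 14 other measured genes of cholesterol synthesis and uptake, 0 passed between P4 and P0 by limma (3 higher and 0 lower at an unadjusted p under 0.05). In culture 2 were higher than at P0, Idi1 and Sqle, and 0 lower (9 higher and 0 lower unadjusted). The median difference of the 14 between culture and P0 was 0.65 on the log2 scale, against −0.08 over all tested probe sets. Of 23 other genes of fatty acid and lipid metabolism, 0 passed between P4 and P0 (4 higher and 1 lower unadjusted). In culture Acadm, of fatty acid oxidation, was higher than at P0 and Fabp3, a fatty acid binding protein, was lower (5 higher and 1 lower unadjusted). Of 15 other genes of steroid synthesis and metabolism, only Cyp19a1, aromatase, was higher at P4 than at P0, and 0 passed between culture and P0 (3 higher and 1 lower unadjusted). Between culture and P4, Cyp19a1 was lower in culture, as Akr1c14 was, and Hsd17b2, which oxidises estradiol, and Tspo, a mitochondrial membrane protein, were higher.

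Genes of heme, iron, amino acid and other metabolism numbered 9, on 11 probe sets, with median folds over P0 of 2.36 at P4 and 2.43 in culture. Alas1, the rate-limiting enzyme of heme synthesis, read 56.9 and 26.9 at P0, 228.7 and 126.5 at P4, and 143.6 and 112.9 in culture on one probe set. On the other it read 53.7 and 42.1, then 158.2 and 101.2, then 127.5 and 104.9. On both, replicate 1 was the higher in every group, and the cultured arrays overlapped the P4 arrays. Arg2, the mitochondrial arginase, read 58.8 and 51.8 at P0, 197.7 and 180.5 at P4, and 153.4 and 159.9 in culture, with P4 above culture. Gchfr, the feedback regulator of the tetrahydrobiopterin enzyme GTP cyclohydrolase, read 34.5 and 26, then 89.1 and 78.2, then 88.3 and 89, with overlap.

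Vwa8, a mitochondrial ATPase, read 77 and 71.1 at P0, 170.4 and 178.4 at P4, and 145.7 and 196.1 in culture. Clpb, a mitochondrial disaggregase, was 2.99-fold and 2.05-fold above P0 at P4 on its 2 probe sets, and 2.09-fold and 1.73-fold in culture. Psat1, of serine synthesis, was 2.08-fold and 2.75-fold above P0, Gyg1, the primer of glycogen synthesis, 1.81-fold and 1.88-fold, and Aco1, the iron-responsive cytosolic aconitase, 1.63-fold and 1.84-fold. Gsta1, a glutathione transferase, read 292.1 and 168.8 at P0, 493.4 and 492.1 at P4, and 584.8 and 578.8 in culture. Its cultured arrays lay above its P4 arrays, and its P0 replicates differed more than either later pair. Of 27 other measured genes of glutathione and detoxification, 0 passed between P4 and P0 by limma (4 higher and 2 lower at an unadjusted p under 0.05). In culture 3 were higher than at P0 and 0 lower (7 and 2 unadjusted): Gpx2, a glutathione peroxidase, Sod2, the mitochondrial superoxide dismutase, and Nqo1, a quinone reductase.

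Secreted, matrix and glycoprotein genes numbered 6, with median folds over P0 of 2.80 at P4 and 2.46 in culture. Clu, clusterin, a secreted chaperone of Sertoli and granulosa cells and of many injured tissues, read 139.1 and 175.6 at P0, 483.3 and 465.9 at P4, and 769.6 and 872.9 in culture. Both cultured arrays lay above both P4 arrays. Plod2, a lysyl hydroxylase of collagen, read 158 and 135, then 458.8 and 299.7, then 351.6 and 320.5, with the cultured pair inside the P4 pair. Enpp3, an ectonucleotide pyrophosphatase, read 30.2 and 17.2 at P0, 57.6 and 60.5 at P4, and 131.2 and 120.8 in culture. It was at least 2.35-fold higher at P4 and at least 5.02-fold higher in culture. Cpa1, known as a digestive carboxypeptidase of the pancreas, read 16.6 and 19.9, then 192.5 and 71.8, then 50 and 49.2, so its P4 mean rested on replicate 1. Col11a1, a fibrillar collagen chain of cartilage, was at least 3.86-fold higher at P4 and at least 2.44-fold higher in culture, and Rpn2, a subunit of the oligosaccharyltransferase, was 1.93-fold and 1.70-fold above P0.

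Clu is also one of the granulosa markers. Of the 23 others measured, 3 were higher at P4 than at P0 by limma (Inha, Cyp19a1 and Serpine2) and 0 lower (6 and 5 at an unadjusted p under 0.05). In culture 2 were higher than at P4 (Krt8 and Krt18, keratins that surface epithelium also makes) and 3 lower (Inha, Amh and Cyp19a1). At an unadjusted p under 0.05 by limma these counts were 3 and 11. The median log2 difference of the 23 between culture and P4 was −0.65, against −0.04 over all tested probe sets. The summed intensity of the 23 was 4160 and 4849 at P0, 5475 and 4919 at P4, and 3265 and 3401 in culture, where Clu was at its highest. Much of the P0 sum came from Krt19 (1103 and 1131 at P0, 691 and 480.2 in culture) and Fst (1011 and 813.9, then 316.9 and 259). Between culture and P0, 3 of the 23 were higher and 8 lower at an unadjusted p under 0.05 by limma, with a median log2 difference of −0.32. The part of granulosa cells in the value of Clu was not tested. Cd9 belongs to the surface epithelium list, of whose 7 other measured genes 0 passed between P4 and P0 by limma (1 higher and 2 lower unadjusted) and 3 were higher in culture than at P4, Krt8, Krt18 and Lgals3. Its part in the value of Cd9 was not tested.

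Cell division was represented by 3 genes, with symbols beginning Ccn or Cdk left out by the rule. Dlgap5, a spindle assembly factor, read 188.2 and 157.7 at P0, 557.8 and 448.6 at P4, and 388.1 and 534.5 in culture. Ccdc124, a protein of ribosomes and of the midbody, read 303.9 and 274 at P0, 778.2 and 794.5 at P4, and 855.6 and 1204 in culture, with the cultured arrays above the P4 arrays. Racgap1, a subunit of the centralspindlin complex of cytokinesis, was 1.83-fold and 1.68-fold above P0. Of 17 other measured cell cycle genes, 1, Ccnb1 (cyclin B1), was higher at P4 than at P0 by limma and 0 were lower (11 and 0 at an unadjusted p under 0.05), and 0 passed between culture and P0 (5 higher and 1 lower unadjusted). The median difference of these 17 was 0.76 at P4 and 0.33 in culture on the log2 scale, against −0.05 and −0.08 over all tested probe sets.

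**Figure D2:**
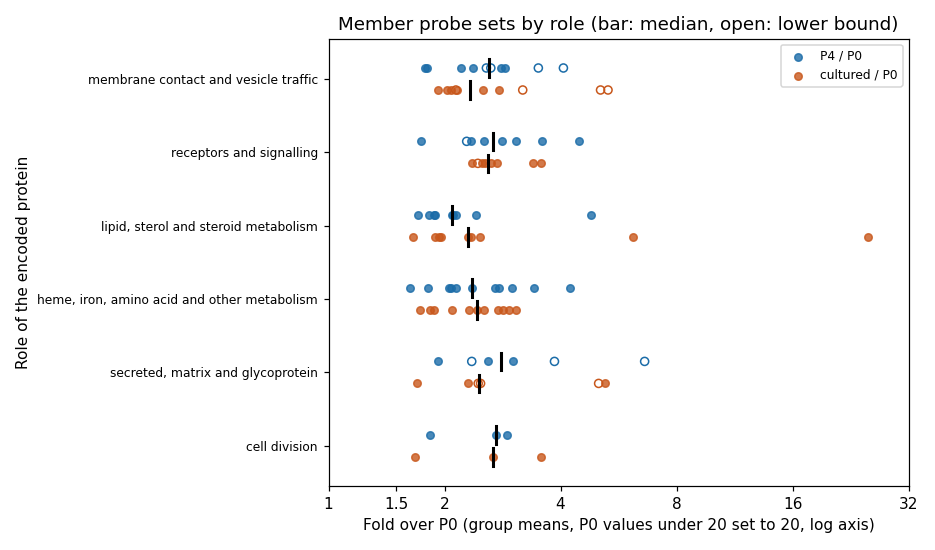
Fold of the group means over P0 (linear intensities with P0 values under 20 set to 20, log axis) for the 47 probe sets, grouped by the role of the gene, at P4 (blue) and in culture (orange), with a black bar at each median and open points for lower bounds. All P4 points lie between 1.63-fold and 6.61-fold, and Pla2g2a in culture, at 25.03-fold, is the highest.

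The rule treated P4 and cultured arrays alike, so it set no direction between them, and this is the comparison that was tested. It sets the level in organ culture beside the level in the pup. The cultured ovaries were 7 days past birth and the P4 ovaries 4, so culture and age cannot be told apart in any difference below. Pla2g2a and Acsl1 were higher in culture and Akr1c14 was lower, and the other 44 probe sets did not pass. The 2 higher calls were 4.26% of the 47, against 2.16% of the 6118 tested probe sets, and the 1 lower call was 2.13%, against 0.621%. At an unadjusted p under 0.05 there were 7 higher (14.9%, against 7.63% of all tested) and 2 lower (4.26%, against 6.39%). All 3 called genes are enzymes of lipid or steroid metabolism, a grouping made after the values were seen.

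Differences are in log2(intensity + 7.7), from limma's moderated test over all 6 arrays with Benjamini-Hochberg adjustment over the 6118. Pla2g2a was higher in culture by 3.10 (SE 0.54, 95% interval 1.88 to 4.32, adjusted p = 0.015 by limma), and without P4 replicate 1 the adjusted p was 0.052. Of 12 measured macrophage and leukocyte markers, 7 were also called higher in culture than at P4 by limma. Their summed intensity was 4370 on cultured replicate 1 and 2173 on replicate 2, of which Lyz2 alone read 2267 and 955.7. The part of these cells in the Pla2g2a value was not tested. Acsl1 was higher by 1.41 (SE 0.27, interval 0.81 to 2.02, adjusted p = 0.023 by limma). The call was lost without P4 replicate 1 (adjusted p = 0.062), P4 replicate 2 (0.11) or cultured replicate 2 (0.16). Of 9 measured adipocyte markers 3 were also higher in culture than at P4 by limma, Fabp4, Lpl and Cfd, and 0 were lower (3 and 1 at an unadjusted p under 0.05). The summed intensity of the 9 was 1165 and 1008 at P0, 1163 and 1179 at P4, and 1950 and 2511 in culture, and none was at 0 on any array. Lep alone read 760.2 and 653.3 of this at P0, and 531.5 and 506.4 in culture. The part of these cells in the Acsl1 value was not tested. Akr1c14 was lower by −0.99 (SE 0.21, interval −1.46 to −0.51, adjusted p = 0.039 by limma). Each array of P4 and of culture, and P0 replicate 1, was needed for this call: without P0 replicate 1 the adjusted p was 0.050, without P4 replicate 1 or 2 it was 0.19 in both, and without cultured replicate 1 or 2 it was 0.16 and 0.15. With no filter on dim probe sets it was 0.075.

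Across all 47, 21 had the higher mean in culture and 26 at P4. The median difference was −0.11 (middle 50% from −0.23 to 0.27), against −0.04 (−0.26 to 0.20) over all tested probe sets. The P4 and cultured arrays did not overlap for 24 probe sets: 13 were higher in culture (27.7%, against 19.1% of all tested) and 11 lower (23.4%, against 24.5%). These shares are near those of the table as a whole. The interval of the difference lay within a 2-fold change either way for 32 of the 47 and reached past it for 15, so for those 15 the 2 arrays a group do not bound the difference to 2-fold.

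Several genes that did not pass had sizeable differences. Enpp3 was 1.00 higher in culture (SE 0.26, adjusted p = 0.089 by limma), Gja5 0.88 (adjusted p = 0.13), Clu 0.78 (0.084) and Emb 0.62 (0.18). Cpa1 was lower by −1.14 (SE 0.38, adjusted p = 0.19 by limma), and without P4 replicate 2 it was called lower (−1.80, adjusted p = 0.015). Mvd and Cd9 were the nearest to no difference, at 0.00 and −0.01 on the log2 scale.

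**Figure D3:**
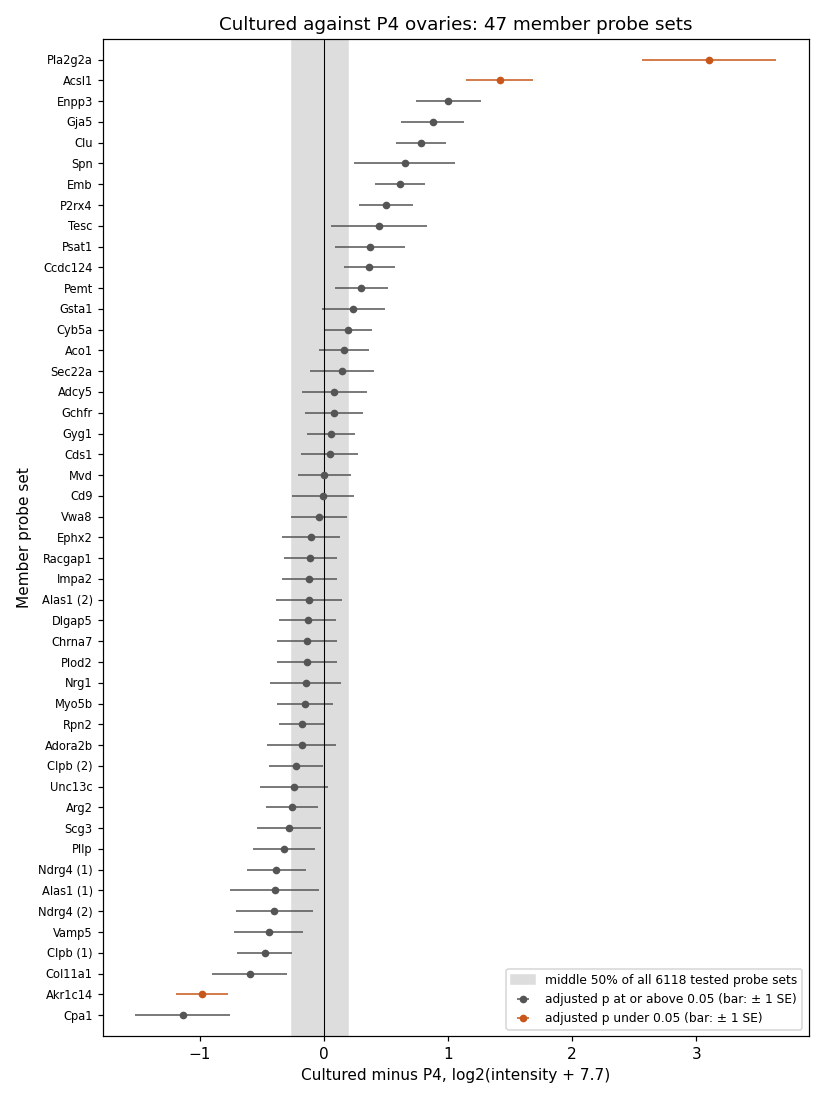
Difference between cultured and P4 arrays, in log2(intensity + 7.7), for the 47 probe sets, with bars of 1 SE either way and orange where the adjusted p was under 0.05. The grey band is the middle 50% of all 6118 tested probe sets, and the called genes are Pla2g2a and Acsl1 on the right and Akr1c14 on the left.

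Other probe sets of the same genes were not used by the rule, though they were measured on the same arrays. There were 34 of them for 16 of the 44 genes. On 16 of the 34 all 4 later arrays exceeded both P0 arrays, a pattern that 9.84% of all tested probe sets had, and on 18 they did not. Among the 16 is a probe set each of Cd9, Emb, Nrg1, Cds1 and Ephx2 that bears the same sequence number in its name as the chosen one. Such a pair reads 1 sequence, so its members are not independent of each other. The mean of every group was under 20 for 6 of the 34.

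Akr1c14 had a second probe set, which read 37.5 and 42.6 at P0, 190.6 and 201.8 at P4, and 65.5 and 61.5 in culture, and it was lower in culture than at P4 by −1.52 (SE 0.21, adjusted p = 0.0046 by limma). Both Akr1c14 probe sets match several similar transcripts of the aldo-keto reductase family, so related genes may add to either value. For Acsl1 a second probe set rose too, from 38 and 22.2 at P0 to 55.6 and 53.9 at P4 and 112.9 and 152.8 in culture (1.16 above P4, adjusted p = 0.063 by limma). Another Acsl1 probe set did not, with 47.6 and 69.3, then 58.9 and 46.3, then 34.5 and 43.5. The second probe sets of Cd9 and Emb, 2 of Gyg1 and 3 of Nrg1 were above P0 on all 4 later arrays.

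For other genes the probe sets disagreed. Gja5 read 119.6 and 145.5 at P0, 135.2 and 161.4 at P4, and 121.2 and 145.7 in culture on its brightest probe set, with no separation between the groups. Chrna7 read 34.8 and 43, then 29.3 and 38.3, then 36.6 and 39.3 on another. One Cds1 probe set read lower after birth on all 4 arrays, with 90.1 and 92.2 at P0, 68.8 and 89.1 at P4, and 43.6 and 69.4 in culture. Both other probe sets of Adcy5 and the one of Col11a1 were dim, between 1.7 and 29.6 over the 6 arrays. Psat1 read 224 and 190.9 at P0, 196.7 and 347.2 at P4, and 305.8 and 444.1 in culture on its brightest probe set, and Vamp5 read 9.2 and 37.2, then 24.3 and 33.8, then 26.2 and 21.7 on its other one. Ephx2 read 113.6 and 163.2, then 150.3 and 194, then 156.1 and 152.4 on its brightest probe set, 1.24-fold above P0 at P4. In all, the further probe sets were raised on all 4 later arrays without exception for 5 of the 16 genes (Akr1c14, Cd9, Emb, Gsta1 and Gyg1), in part for 5 (Acsl1, Cds1, Cyb5a, Ephx2 and Nrg1) and in no case for 6 (Adcy5, Chrna7, Col11a1, Gja5, Psat1 and Vamp5). Of the 47, 7 match several similar transcripts by the array maker's naming, those of Akr1c14, Gsta1, Clu, Gchfr, Enpp3 and Cyb5a and 1 of Clpb, so their gene assignment is uncertain.

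**Figure D4:**
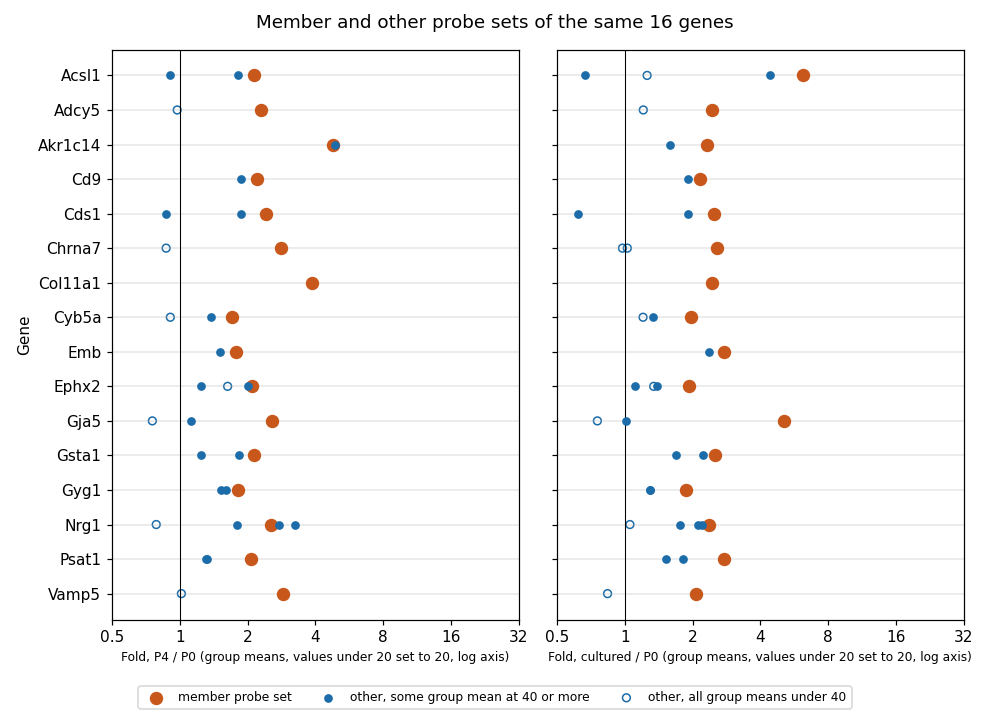
Fold of the group means over P0 (linear intensities with values under 20 set to 20, log axis) for the 16 genes that had further probe sets, with the chosen probe sets in orange and the others in blue, open where every group mean was under 40 and left out where both groups read under 20 on every array (7 probe sets at P4, 5 in culture). The others of Cd9 and Emb, which bear the same sequence number as the chosen ones, lie close to them on both axes. The brightest ones of Gja5 and Chrna7 lie near 1.

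The thresholds cut through a continuous range of values. Just inside were Scg3 (ratio 1.52), Nrg1 (1.52) and Racgap1 (1.55). Just outside by ratio were Sqle, squalene epoxidase (1.49), a second probe set of Gsta1 (1.48) and Serpine2, a protease inhibitor (1.48). Just outside by level, with their lowest later value in parentheses, were Spop (37.2), Ddias (35.4) and Abat (32.7).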

How the data were processed

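The authors deposited linear probe set intensities for 6 arrays, already scaled to one level per array; the software is not given in the sources used here. No scaling was added here. Values were taken as log2(intensity + 7.7), the addend being the table's 20th percentile. Removing 59 control probe sets and the 2622 dimmest others (below the 30th percentile by mean log2) left 6118 for testing. The fit (limma 3.58.1, R 4.3.3) had a mean for each of the 3 groups, used all 6 arrays and a trended moderated variance, with Benjamini-Hochberg adjustment over the 6118 and calls at an adjusted p under 0.05. The fit was also run on simulated arrays with independent noise and no shared chip batch, as a check of the code only. All 47 probe sets described passed the filter, which their minimum of 40 made certain, so that count supports nothing.

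Cultured against P4 is the only tested comparison of these genes, since the rule used the other 2. The members and the gene lists were chosen with earlier results of these data known, and the roles were assigned after the values were seen. Full values are given for the 20 probe sets with the largest ratio under the rule, those called, and members of the lists; Spn, Emb, Tesc and a few others were added for their differences between replicates or groups, after their values were seen. List counts use the brightest probe set of a gene. Up to 2 further genes per list are named by smallest p, and small counts are named in full, after their values were seen. Symbols came from the array annotation: 7018 probe sets had 1 symbol, 308 several and 1473 none, and 6994 were matched by gene number to RefSeq (GRCr8). The labels call the 2 RNA samples of a group independent, and their number limits the precision. Alternatives varied the pseudocount, filter, normalization, variance model, blocks, arrays and thresholds.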

Additional observations from a re-analysis of the deposited data

How the results depend on the processing

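Pla2g2a, Acsl1 and Akr1c14 kept the direction of their difference between culture and P4 under every alternative run; among the other 44, up to 9 changed sign when 1 array was left out and at most 1 under any other setting. The count of members called lower, 1 in the reported fit, was 0 with no filter on dim probe sets (2 at an unadjusted p under 0.05 by limma). With the replicate number as a block, 1 was called higher and 0 lower (3 lower at an unadjusted p under 0.05 by limma): Acsl1 (adjusted p = 0.056) and Akr1c14 (0.066) lost their calls. Same-numbered P4 and cultured arrays did not deviate together (correlation of deviations −0.05 across probe sets). The number thus pairs only P0 with P4 (0.33, and a shared ending of the chip identifiers). With the chip identifier ending as a random block (estimated correlation 0.36) the same 3 calls were made. They were also made with pseudocount 1, quantile normalization and no intensity trend. Enpp3 was called higher as well with a pseudocount of 32 (adjusted p = 0.049) and with the P4 and cultured arrays alone (0.048).

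Leaving out 1 array at a time gave 0 to 2 members called higher and 0 to 1 called lower, and leaving out P4 replicate 1 left no call among the 47 (1 lower at an unadjusted p under 0.05 by limma). Pla2g2a ranged from 2.02 (without cultured replicate 1) to 4.19 (without cultured replicate 2) on the log2 scale. The number of probe sets that met the rule was 106 at a ratio of 1.3, 14 at a ratio of 2 and 29 at a lowest value of 80. Leaving out 1 array at a time, which can only raise this number, it ran from 57 to 142, the most without P0 replicate 1. It was 83 without P0 replicate 2 and 78 without cultured replicate 1. The depth of an array is its signal over background: the 8 genes with a P0 value under 20 have only a lower bound for their rise.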
